A study of Mus musculus with 6 samples.

Results

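The AP-1 and immediate early genes described here are the 10 genes Fos, Fosb, Fosl1, Fosl2, Jun, Junb, Jund, Egr1, Egr2 and Atf3, chosen by symbol from the 16279 genes listed in 1 or both of the deposited bulk RNA-seq tables. Of the 10 genes, 10 were listed for CPCCs (cardiac precursor cell cultures) and 6 for mESCs (mouse embryonic stem cells), and the same 6 could be tested between the cell types. The study compared 3 mESC libraries, S01 to S03, with 3 CPCC libraries, S04 to S06, all from male F1 cells of the cross C57BL/6 x CAST/EiJ. The mESCs were single-cell clones grown without feeders in serum medium with LIF, the MEK inhibitor PD0325901 and the GSK3 inhibitor CHIR99021. The CPCCs were grown from those clones through hanging drops, embryoid bodies and ascorbic acid, then dissociated and passaged 3 times in an enrichment medium with EGF and Fgf2. They are mixed cultures, and the cell type, the medium and the growth factors changed together between the groups, so that their parts in a difference cannot be told apart.

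AP-1 is a family of dimeric transcription factors. A FOS protein (FOS, FOSB, FOSL1 or FOSL2) typically pairs with a JUN protein. The JUN proteins (JUN, JUNB and JUND) can also pair with each other and with ATF3. Fos, Egr1 and their kin are called immediate early genes because signals such as growth factors, acting through the ERK kinases and the factors SRF, ELK and CREB, induce them within minutes and without new protein synthesis. EGR1 and EGR2 are zinc finger factors induced by the same signals.

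Promoters of 5 genes that the results turn on are shown here because such windows can carry the short elements by which such signals act. RefSeq windows of 300 bases on GRCm38.p6 (250 bases before a transcription start and 50 after it) were at hand for 8 of the 10 genes, and each is printed 5′ to 3′ on the gene's strand. Capitals mark the letters searched on both strands: the core of a cAMP response element (TGACGT), the AP-1-like site TGACATCA, the CArG box bound by SRF, the EGR site GCGNGGGCG and the TATA box TATAAA. The windows are chr12:85473640-85473939 for Fos on the plus strand, chr4:95052173-95052472 for Jun on the minus strand, chr5:32136222-32136521 for Fosl2 on the plus strand, chr10:67537619-67537918 for Egr2 on the plus strand and chr1:191183284-191183583 for Atf3 on the minus strand.
Fos: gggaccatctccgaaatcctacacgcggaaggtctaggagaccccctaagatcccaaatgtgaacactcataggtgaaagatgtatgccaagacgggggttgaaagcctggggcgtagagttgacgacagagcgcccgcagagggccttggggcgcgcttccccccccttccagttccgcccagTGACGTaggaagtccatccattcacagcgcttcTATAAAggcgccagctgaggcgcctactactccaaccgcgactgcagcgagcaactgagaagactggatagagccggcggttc
Jun: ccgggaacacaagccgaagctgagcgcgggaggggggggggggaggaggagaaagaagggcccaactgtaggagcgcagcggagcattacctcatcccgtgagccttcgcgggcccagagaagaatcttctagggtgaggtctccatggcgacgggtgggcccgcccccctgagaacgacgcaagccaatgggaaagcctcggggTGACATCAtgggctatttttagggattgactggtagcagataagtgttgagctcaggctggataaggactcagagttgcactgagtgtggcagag
Fosl2: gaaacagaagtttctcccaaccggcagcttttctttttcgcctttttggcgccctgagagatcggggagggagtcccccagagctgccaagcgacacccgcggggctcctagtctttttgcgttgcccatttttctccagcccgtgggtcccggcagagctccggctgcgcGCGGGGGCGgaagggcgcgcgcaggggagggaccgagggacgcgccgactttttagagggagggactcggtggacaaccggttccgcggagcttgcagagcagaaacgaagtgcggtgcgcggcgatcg
Egr2: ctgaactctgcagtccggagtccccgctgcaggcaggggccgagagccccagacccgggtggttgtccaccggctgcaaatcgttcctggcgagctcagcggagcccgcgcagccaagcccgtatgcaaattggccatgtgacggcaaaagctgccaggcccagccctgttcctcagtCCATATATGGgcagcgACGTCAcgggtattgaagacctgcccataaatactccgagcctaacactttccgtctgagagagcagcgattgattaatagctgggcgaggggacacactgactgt
Atf3: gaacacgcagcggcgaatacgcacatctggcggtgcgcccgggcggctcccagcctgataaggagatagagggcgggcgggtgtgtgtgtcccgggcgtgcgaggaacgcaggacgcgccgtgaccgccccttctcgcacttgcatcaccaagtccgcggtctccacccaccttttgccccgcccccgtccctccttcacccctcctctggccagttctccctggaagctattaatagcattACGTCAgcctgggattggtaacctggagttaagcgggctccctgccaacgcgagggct

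TGACGT was in the windows of 3 of the 8 genes (Fos, Egr2 and Atf3) and in 7.51% of all 32851 windows of this length. Its first base lay 66 bases before the start of Fos, 56 before the start of Egr2 in the window shown and 8 before that of Atf3. TGACATCA was found for Jun alone among the 8, 45 bases before its start, and in 3.62% of all windows. A CArG box was found for Egr2 alone among the 8, in 4 of its 5 windows, which partly overlap, and 72 bases before the start in the window shown. It was in 1.63% of all windows. GCGNGGGCG was found for Fosl2, 79 bases before its start, and for Fosb, 50 bases before its start, and in 5.55% of all windows. TATAAA was found for Fos, 33 bases before its start, for Junb at its start, and in 13.6% of all windows. The full cAMP response element TGACGTCA, which contains TGACGT, was in 0 of the 8 genes' windows and in 1.79% of all, and the AP-1 site TGANTCA was in 0 of the 8 and in 7.81% of all. The Jund window (chr8:70697489-70697788) held none of these motifs. It lies upstream of the start of the GENCODE M21 model of Jund at 70698949, so it may not cover the promoter in use. These matches describe letters in a short window and say nothing of binding.

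**Figure D1:**
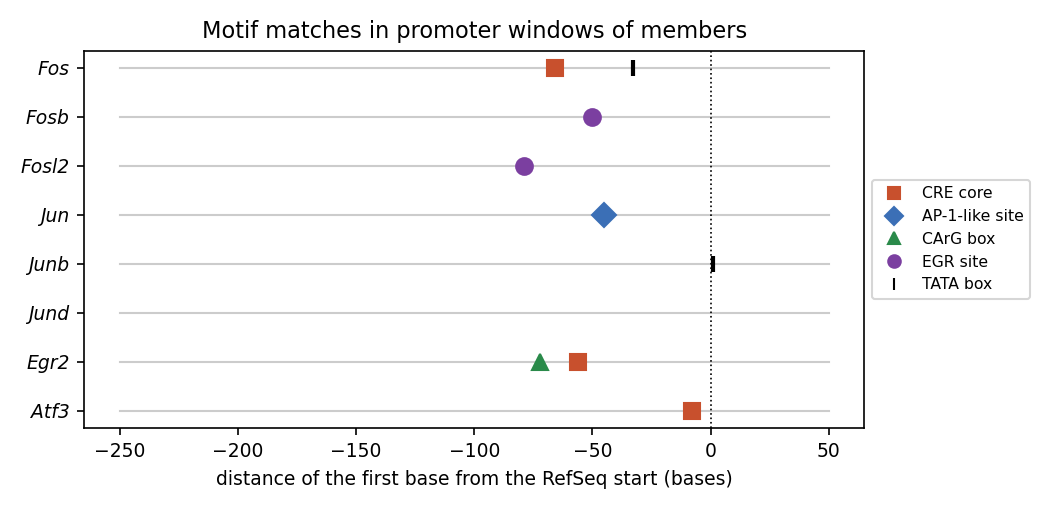
Positions of the motif matches in the promoter windows of the 8 genes with a RefSeq window. The x axis is the distance in bases from the transcription start (dotted line) and each grey line is 1 window of 300 bases. For Egr2, 1 of its 5 windows is drawn. All matches but the TATA box of Junb lie before the start. The Jund window, which lies upstream of the GENCODE M21 start of that gene, has none.

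Most of these genes were higher in CPCCs, several by over 8-fold. Levels are given as CPM, the counts of a gene scaled to a library of 1e+06 counts. Of the 6 genes tested, 5 were called higher in CPCCs (Fosl2, Jun, Fos, Junb and Atf3) and 0 lower by edgeR's quasi-likelihood test at a Benjamini-Hochberg adjusted p under 0.05, and Jund was not called. None was lower at an unadjusted p under 0.05 or with DESeq2 either. Over all 12471 genes tested, 31.7% were called higher and 29.7% lower. With every CPCC library above every mESC library, the same 5 genes were among the 33.8% of tested genes without overlap in that direction. Fosl2, Jun, Fos and Junb, 4 of the 6, were called with a rise of at least 8-fold, which held for 7.19% of the genes tested. The median log2 fold change of the 6 genes was 3.61 and that of all genes tested was 0.03. Fosb, Fosl1, Egr1 and Egr2, 4 of the 10, were listed for CPCCs only, as were 15.5% of the genes in either table. With these 4 at the bounds given further on, the median of the 10 was 3.65. In bulk samples, fewer cells that express a gene and less of its RNA per cell cannot be told apart.

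**Figure D2:**
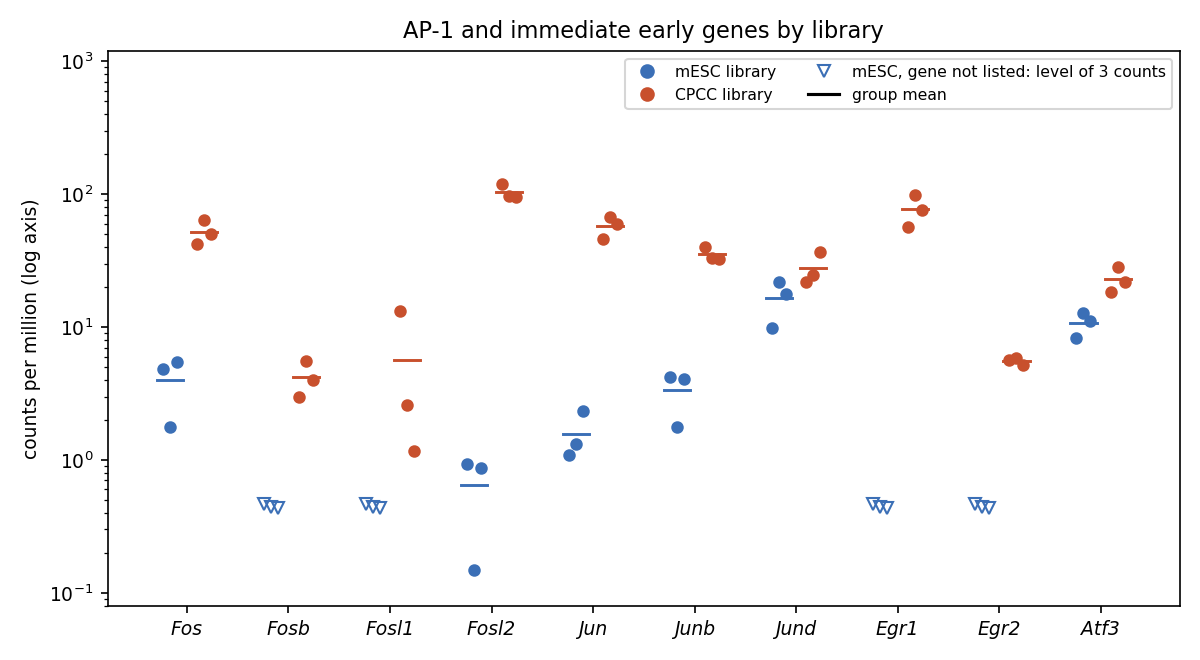
CPM of each gene in each library, on a log axis. Blue points are the 3 mESC libraries, red points the 3 CPCC libraries, bars the group means, and open triangles the level of 3 counts in each mESC library for genes not listed there. The groups overlap for Jund alone among the 6 genes listed in both tables, and Fosl1 is the gene with the widest spread among CPCC libraries.

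Among the FOS family, Fosl2 (chr5:32136472-32157840, plus strand, 4 exon blocks), which encodes FRA2, had the largest difference of the 6 genes tested. The mESC libraries S01, S02 and S03 held 6, 1 and 6 of its counts, or 0.931, 0.147 and 0.869 CPM. The CPCC libraries S04, S05 and S06 held 1372, 819 and 811 counts, or 120.0, 96.3 and 95.8 CPM. The lowest CPCC library was 103-fold above the highest mESC library. The log2 fold change was 7.37 ± 0.41 (SE, edgeR adjusted p = 2.46e-06, n = 3 and 3), a rank of 37 among the 12471 genes. Because the mESC libraries held only 13 counts in all, the ratio of the pooled counts was 164 with an exact 95% interval of 95.6 to 308, which covers counting error only.

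Fos itself (chr12:85473901-85477271, plus strand, 4 exon blocks), the prototype of the family, was at 4.81 CPM in S01, 1.77 in S02 and 5.50 in S03. CPCCs held 42.1 CPM in S04, 64.1 in S05 and 50.3 in S06. S02 was the lowest mESC library, with 12 counts against 31 and 38, and S05 was the highest CPCC library. The groups did not overlap, with a gap of 7.65-fold between the nearest libraries. The log2 fold change was 3.74 ± 0.38 (SE, edgeR adjusted p = 5.05e-05), a 13.4-fold rise.

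Fosb and Fosl1 were listed for CPCCs only, which means fewer than 10 counts over the 3 mESC libraries, since 10 is the smallest sum found in either table. CPCC means were set against a floor of 3 counts in each mESC library, which equals 0.434 to 0.466 CPM. Fosb (chr7:19302696-19310046, minus strand) had 2.97, 5.53 and 4.01 CPM in S04, S05 and S06, and its mean was at least 9.33-fold higher than the floor. Fosl1 (chr19:5447698-5455939, plus strand), which encodes FRA1, had 13.2, 2.58 and 1.18 CPM, or 151, 21.9 and 9.97 counts. S04 stood apart, 11.3-fold above S06. The mean of Fosl1 was at least 12.7-fold higher than the floor with S04 and at least 4.20-fold higher without it.

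Reads of Fosl1 are shared with a neighbour. Its gene body overlaps that of Ccdc85b on the opposite strand by 2767 bases, and the counts of both genes were not whole in CPCCs, although their sum was 376, 198 and 185 in S04, S05 and S06. How the reads were divided, and whether strand was used, is not given in the sources used here, so the level of Fosl1 is uncertain. Ccdc85b was given 19.6, 20.7 and 20.7 CPM in the same libraries, values that rest on the same division of reads. The undivided sum of both genes was 32.9, 23.3 and 21.8 CPM, highest in S04. The other members had whole counts. Jun, Junb, Jund and Atf3 also overlap a gene on the opposite strand in GENCODE M21. For Junb that is Prdx2, by 351 bases, which was not called (log2 fold change −0.18, edgeR adjusted p = 0.354), and the partners of Jun (Junos), Jund (Gm11175) and Atf3 (Gm24748) were listed in neither table.

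Other values also differed in S04. S04 was the highest CPCC library for 20 of the 30 genes known as AP-1 targets (66.7%) and for 25 of the 40 other immediate early genes listed for CPCCs (62.5%), against 29.1% of all 15519 genes listed for CPCCs. It exceeded both other CPCC libraries by over 2-fold for 6 of the 30 targets (20%), for 2 of the 40 other immediate early genes (5%) and for 4.54% of all genes. Of the 10 genes themselves, 3 (30%) were highest in S04. The 5 blood or macrophage markers, all listed for CPCCs and 1 of 5 for mESCs, summed to 224 CPM in S04, 75.6 in S05 and 37.2 in S06, and to 10.9 to 15.4 CPM in mESCs, where Ptprc, Csf1r, Adgre1 and Lyz2 were not listed. The part of these cells in the level of Fosl1 was not tested.

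The JUN family changed unequally. Jun (chr4:95049036-95052223, minus strand, a single exon block), the member whose protein is the strongest transcriptional activator of its family, was at 1.09 CPM in S01, 1.32 in S02 and 2.32 in S03. It reached 46.3 CPM in S04, 67.2 in S05 and 59.7 in S06. The libraries did not overlap, and the nearest were 20.0-fold apart. Its log2 fold change was 5.22 ± 0.32 (SE, edgeR adjusted p = 3.66e-06), a 37.4-fold rise. Junb (chr8:84976909-84978749, minus strand), often a brake on JUN activity and on cell division, was at 4.19 CPM in S01, 1.77 in S02 and 4.05 in S03, and at 40.0 CPM in S04, 33.3 in S05 and 32.4 in S06. The gap was 7.72-fold, and the log2 fold change was 3.47 ± 0.35 (SE, edgeR adjusted p = 5.08e-05).

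Jund (chr8:70697739-70700617, plus strand), the family member that resting cells usually express, was at 9.78 CPM in S01, 21.8 in S02 and 17.7 in S03, and at 21.7 CPM in S04, 24.5 in S05 and 36.8 in S06. S02 lay just above S04, so the groups overlapped. Its log2 fold change was 0.79 ± 0.32 (SE), which did not pass the threshold (edgeR adjusted p = 0.0555). The call depended on single libraries, since the value was 1.05 without S02 (edgeR adjusted p = 0.0373) and 0.90 without S04 (edgeR adjusted p = 0.0252). DESeq2 gave 0.79 with an adjusted p of 0.0439, and over all alternatives the adjusted p ran from 0.0252 to 0.163.

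**Figure D3:**
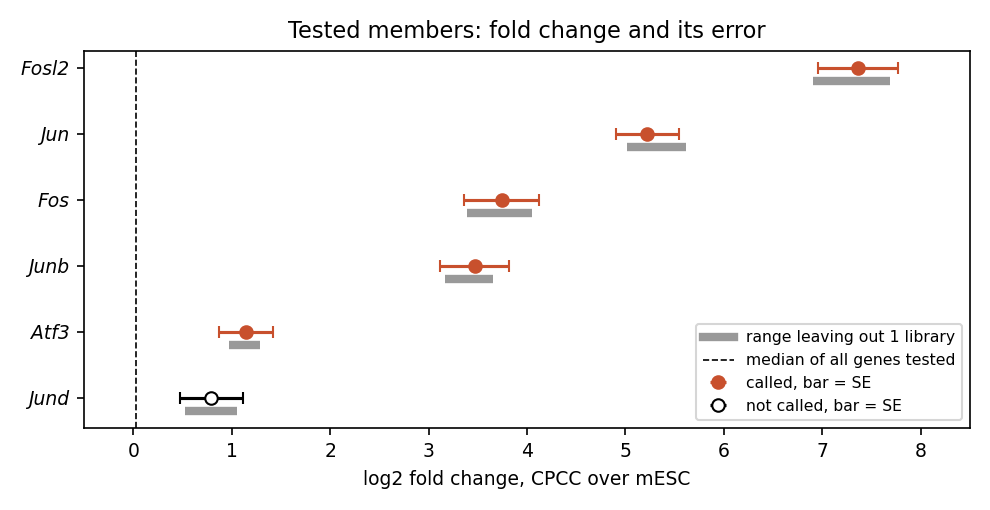
Log2 fold change of CPCCs over mESCs for the 6 genes listed in both tables. Points and thin bars are the edgeR estimate and its standard error, red where called and open where not, grey bars the range when 1 library is left out, and the dashed line the median of all genes tested (0.03). Fosl2 is at 7.37 and Jund, the gene not called, at 0.79.

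Egr1 (chromosome 18, plus strand, 2 exon blocks) had the highest level of the 4 genes listed for CPCCs only. It had 643, 839 and 645 counts in S04, S05 and S06, or 56.2, 98.7 and 76.2 CPM, and its mean was at least 172-fold higher than the floor of 3 counts per mESC library. By mean CPM in CPCCs it ranked 67 among the 2518 genes listed for CPCCs only. Egr2 (chr10:67537869-67542189, plus strand), a regulator of myelination and of hindbrain segments, had 5.68, 5.88 and 5.20 CPM and was at least 12.5-fold higher than the floor. Its CPCC libraries differed by only 1.13-fold. Within a library, Egr1 per length was 0.701, 0.807 and 0.794 times Fos in S04, S05 and S06.

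Atf3 (chr1:191170297-191183334, minus strand, 5 exon blocks), a stress-induced factor, had the most even levels between the cell types among the genes called. It was at 8.23 CPM in S01, 12.8 in S02 and 11.1 in S03, and at 18.4 CPM in S04, 28.2 in S05 and 22.0 in S06. The groups did not overlap, although the nearest libraries, S02 and S04, differed by only 1.43-fold. The log2 fold change was 1.14 ± 0.27 (SE, edgeR adjusted p = 0.00584), a rank of 3105 among the 12471 genes.

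The CPCC libraries fell into orders that members shared. Fos, Fosb, Jun, Egr1 and Atf3, 5 of the 10, were highest in S05 and lowest in S04, an order that 18.9% of all genes listed for CPCCs had. Fosl1, Fosl2 and Junb, 3 of the 10, were highest in S04 and lowest in S06, as were 15.5% of all genes. Jund was highest in S06 and lowest in S04, as were 32.6% of all genes. Egr2 was highest in S05 and lowest in S06, as were 9.37%. In mESCs, Fosl2 and Junb ran from S01 over S03 to S02, as did 11.9% of all genes listed there. Fos ran from S03 over S01 to S02 (19.7%), Jund and Atf3 from S02 over S03 to S01 (12.4%). Jun ran from S03 over S02 to S01 (16.2%). The coefficient of variation within mESCs was 49.4% for Fos (81 counts in all), 67.1% for Fosl2 (13), 41.4% for Jun (32) and 40.8% for Junb (67). It was 37.2% for Jund (333) and 21.6% for Atf3 (217), beside a median of 16.4% over all genes tested. At such low counts, counting error makes up part of this spread. Within CPCCs it was 6.32% for Egr2, 11.9% for Junb, 13.3% for Fosl2 and 18.3% to 30.8% for the rest but Fosl1 (116%), beside a median of 22.9%.

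Levels of different genes were compared per length, as CPM per kb of the union of a gene's exons in GENCODE M21. Those exon models do not match the counted loci of every gene, so the levels and ranks below hold for these lengths only. For Jund, a model of 1668 bases starts at 70698949, inside a counted locus that starts at 70697739, so its level could be overstated. Models of other genes, such as Junb and Egr1, reach outside their counted loci, and their levels could be understated. In CPCCs, Fos had the highest level per length at 22.2 ± 4.74 (SD, n = 3), followed by Jun at 18.1 ± 3.31, Egr1 at 17.2 ± 4.74, Jund at 16.6 ± 4.84 and Junb at 15.3 ± 1.83 CPM per kb. The libraries of each of these overlapped those of the next in that order. Fosl2 and Atf3 came next at 10.7 ± 1.43 and 10.6 ± 2.32 CPM per kb, overlapping each other but below every library of Junb. Fosl1 at 2.79 ± 3.25 and Egr2 at 1.64 ± 0.10 CPM per kb overlapped, and Fosb was the lowest at 0.668 ± 0.206, below every library of Egr2. Thus Fosl2, the gene with the highest CPM in CPCCs, was sixth per length, as its exons span 9680 bases against 2352 for Fos.

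In mESCs the order with these lengths was another one. The level of Jund again rests on the 1668 bases of its GENCODE model. Jund had the highest level per length at 9.84 ± 3.66 (SD, n = 3), then Atf3 at 4.98 ± 1.08, Fos at 1.71 ± 0.85, Junb at 1.45 ± 0.59, Jun at 0.494 ± 0.205 and Fosl2 at 0.067 ± 0.045 CPM per kb. Jund and Atf3 overlapped, since Jund in S01 was at 5.86 and Atf3 in S02 at 5.94 CPM per kb. Fos and Junb overlapped as well, and the other neighbours in this order did not.

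The FOS and JUN families together summed to 10.2 CPM per kb in S01, 15.0 in S02 and 15.5 in S03, and to 82.2 CPM per kb in S04, 89.6 in S05 and 87.4 in S06. Jund made up 57.7% of that sum in S01, 87.0% in S02 and 68.3% in S03. In CPCCs it made up 15.8% in S04, 16.4% in S05 and 25.3% in S06. These shares rest on the GENCODE length of Jund, 1668 bases, and a longer one would lower them. The FOS family took 21.1%, 5.10% and 15.7% of the sum in mESCs, against 45.3%, 44.0% and 37.2% for CPCCs. Neither share overlapped between the cell types. With Fosb and Fosl1 set at 3 counts in the mESC libraries, they would add at most 0.712% and 2.19% of the sum in any of them.

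**Figure D4:**
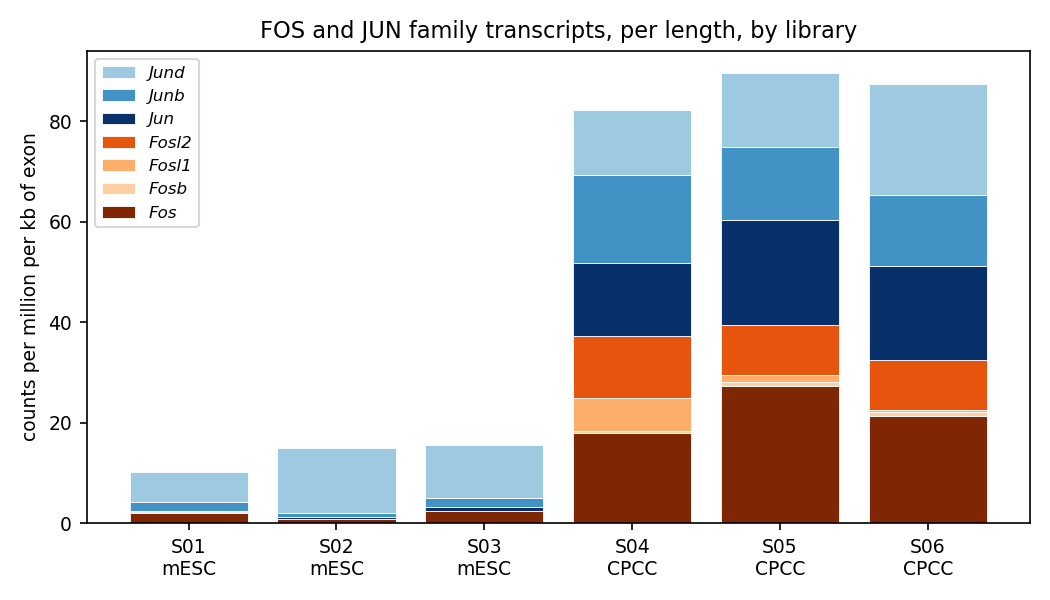
Stacked level of the 4 FOS genes (brown and orange) and the 3 JUN genes (blue) in each library, in CPM per kb of exon. The sum is 10.2 to 15.5 in mESCs and 82.2 to 89.6 in CPCCs, where Fos, Jun, Junb, Jund and Fosl2 all contribute. Most of the mESC sum is Jund at its GENCODE length of 1668 bases. Fosb and Fosl1 are not listed for mESCs and are drawn as absent there.

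The balance between members was followed as a ratio of levels per length within a library, for 5 pairs. Another length for a gene would scale its ratios alike in every library. Jun over Jund was 0.058 in S01, 0.032 in S02 and 0.069 in S03, but 1.12 in S04, 1.44 in S05 and 0.848 in S06. Junb over Jund was 0.0588 to 0.311 in mESCs and 0.637 to 1.34 in CPCCs, Jun over Junb was 0.187 to 0.541 and 0.835 to 1.46, and Fosl2 over Fos was 0.020 to 0.047 and 0.365 to 0.693. Fos over Jun went the other way, from 1.81 to 6.00 in mESCs to 1.14 to 1.29 in CPCCs. None of the 5 ratios overlapped between the cell types. A two-sided exact permutation test of the log2 ratios gave p = 0.1 for each of the 5 (Benjamini-Hochberg adjusted p = 0.1), the smallest that 3 against 3 libraries allow, so no difference of a ratio could pass the threshold.

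The other genes of the pathway were taken from lists of names. Among the other bZIP factors, which share the basic leucine zipper with FOS and JUN, 26 of 35 were tested, 17 were called higher in CPCCs and 3 lower, and the median log2 fold change was 1.02, or 1.29 with the 5 genes listed for CPCCs only at their bounds. The largest rises were of Creb3l1 and Creb3, membrane-bound factors of the secretory pathway, and of the small MAF protein Mafk. Creb3l1 rose by 6.68 ± 0.41, Mafk by 3.57 ± 0.48 and Creb3 by 3.19 ± 0.26 on the log2 scale (SE, edgeR adjusted p = 3.90e-06, 0.000233 and 1.46e-05). The genes called lower were Nfe2 at −2.65 ± 0.86, Atf1 at −0.73 ± 0.22 and Atf4 at −0.51 ± 0.16 (SE, edgeR adjusted p = 0.0242, 0.0174 and 0.0197). These calls were weak, as 1 gene of the list was called lower without S01, without S02 or without S03. Nfe2 had an adjusted p of 0.0683, 0.0600 and 0.0577 without S01, S02 and S03, Atf1 of 0.0700 and 0.0709 without S03 and S05, and Atf4 of 0.0801 and 0.0726 without S01 and S02. Without S04, Nfe2 was at −2.03 and called. Maf and Creb5 were listed for CPCCs only, and their mean CPM there was at least 93.2-fold and 57.6-fold higher than the floor. Jdp2, an inhibitory partner of JUN which lies 121754 bases to the right of Fos, was called higher as well (1.62, edgeR adjusted p = 0.000285).

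Of the 41 other immediate early genes, 34 were tested, 18 were called higher in CPCCs and 7 lower, with a median log2 fold change of 1.49, or 1.56 with the genes listed in 1 table only at their bounds. Dusp6, a phosphatase of ERK, was at 2.33, 0 and 0.145 CPM in the mESC libraries but at 115, 78.6 and 90.7 CPM in those of CPCCs, a log2 fold change of 6.94 ± 0.71 (SE, edgeR adjusted p = 5.08e-05). Without S01, which held most of its mESC counts, that value was 10.14. Cyr61, a secreted matrix protein, rose by 5.69 ± 0.31 and Plk2, a kinase, by 5.15 ± 0.37 on the log2 scale (SE, edgeR adjusted p = 2.37e-06 and 7.49e-06). The list was thus not of 1 direction. Klf2 and Klf4, which belong to the network of naive pluripotency, changed by −3.69 ± 0.19 and −2.94 ± 0.27, and Sik1, a kinase, by −1.43 ± 0.25 (SE, edgeR adjusted p = 1.83e-06, 2.56e-05 and 0.00114). Klf2 is also among the mESC markers used here. Ptgs2 and Nr4a3 were listed for CPCCs only, with means at least 269-fold and 31.6-fold higher than the floor. The bound of Ptgs2 was 125-fold without S04, and that of Nr4a3 was 19.6-fold without S06. Ptgs2, the inducible cyclooxygenase, had 249 CPM in S04 against 66.1 in S05 and 45.9 in S06, and Nr4a3, an orphan nuclear receptor, had 5.07, 12.5 and 24.9 CPM. Egr4 was the only gene of the list seen for mESCs alone, with 0.310 to 1.18 CPM, and it was at least 2.13-fold lower in CPCCs, or at least 1.38-fold without S02.

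All 36 kinases and factors upstream of AP-1 were tested, 18 were called higher and 5 lower, and the median log2 fold change was 0.72. The largest rises were of Mapk10, the JNK kinase of neurons, by 5.51 ± 1.07, and of the SRF partners Elk3 and Elk4 by 5.21 ± 0.50 and 3.36 ± 0.52 on the log2 scale (SE, edgeR adjusted p = 0.00185, 3.50e-05 and 0.000520). Mapk10 had 4.11 CPM in S04 against 26.1 in S05 and 46.5 in S06. Its log2 fold change was 8.14 without S02 and 4.81 without S06, that of Elk3 was 6.06 without S03 and that of Elk4 was 3.97 without S01. Of the 5 neural markers, 5 were listed for CPCCs and 4 for mESCs, where Pax6 was not listed. They summed to 502 to 555 CPM in CPCCs and to 39.3 to 47.8 in mESCs. Sox1 (3.32, 22.7 and 52.4 CPM) and Pax6 (4.06, 13.8 and 18.7 CPM) rose from S04 over S05 to S06. Nes, Tubb3 and Neurod1 did not rise in that order. The part of the neural markers in the level of Mapk10 was not tested. The largest falls were of the ERK-activated kinase Rps6ka1 at −2.03 ± 0.22 and of Map2k1, which encodes MEK1, at −1.10 ± 0.21 (SE, edgeR adjusted p = 6.96e-05 and 0.00197). Map2k6 stood at the threshold, with −0.95 ± 0.37 (SE, edgeR adjusted p = 0.0499), and was not called without S01, S03, S04, S05 or S06, with adjusted p of 0.102, 0.183, 0.0599, 0.122 and 0.0979. Of this list, 3 genes were called lower without S03, S05 or S06.

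Of 30 genes known as AP-1 targets, 17 were tested, 14 were called higher and 0 lower, with a median log2 fold change of 4.19. The other 13 were listed for CPCCs only, and with them at their bounds the median was 3.92. Axl, a receptor kinase, rose by 9.44 ± 0.52 and the gelatinase gene Mmp2 by 6.95 ± 0.32 on the log2 scale (SE, edgeR adjusted p = 2.37e-06 and 1.35e-06). Lox, which cross-links collagen, and the hyaluronan receptor Cd44 were listed for CPCCs only, at means at least 1609-fold and 992-fold higher than the floor. As with DESeq2 (0 lower), no target was lower at an unadjusted p under 0.05. Spp1 was called lower without S04 (−1.18, edgeR adjusted p = 0.000175) and not with it. Many of these genes are also expressed by fibroblasts. The mesenchymal or fibroblast markers, 8 of 8 listed for CPCCs and 4 of 8 for mESCs, summed to 9383 to 13273 CPM in CPCCs and to 10.9 to 18.4 CPM in mESCs, where Col1a2, Col3a1, Postn and Twist1 were not listed. Their part in the change of the list was not tested.

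All 20 stress response genes were tested, and they moved both ways, with 11 called higher, 5 lower and a median log2 fold change of 0.75. The cystine transporter gene Slc7a11, the cell cycle inhibitor gene Cdkn1a and Vldlr rose by 3.97 ± 0.68, 2.67 ± 0.25 and 2.06 ± 0.28 on the log2 scale (SE, edgeR adjusted p = 0.000935, 3.29e-05 and 0.000226), and without S02 the value of Slc7a11 was 5.03. The asparagine synthetase gene Asns and the heat shock genes Hsp90aa1 and Hsph1 changed by −2.67 ± 0.19, −2.65 ± 0.21 and −1.50 ± 0.23 (SE, edgeR adjusted p = 7.62e-06, 1.25e-05 and 0.000564).

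**Figure D5:**
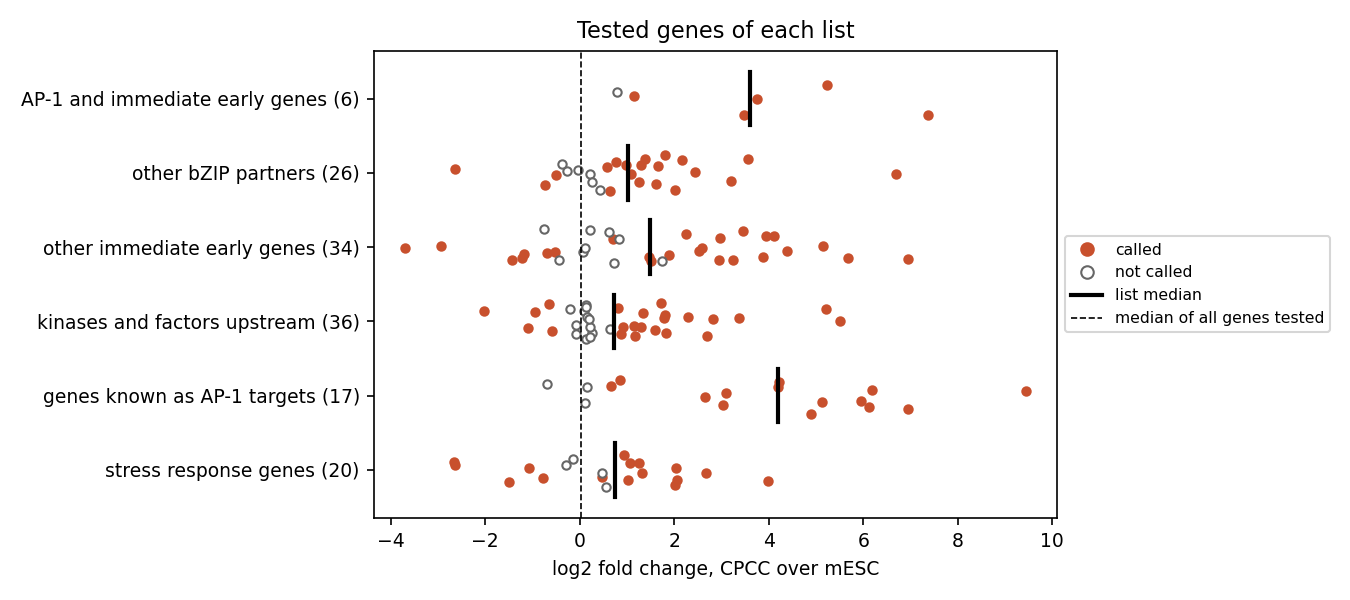
Log2 fold change of CPCCs over mESCs for the tested genes of each list, with the number tested after its name. Red points were called, open points were not, black bars are the list medians, and the dashed line is the median of all genes tested. Genes known as AP-1 targets have the highest median (4.19), and the other immediate early genes and the stress response genes reach to both sides of 0.

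The genes most like Fos and Jun over the 6 libraries were sought by the distance between log2 CPM profiles centred on their means. For Fos these were Zfp334, Dnaja4, Igfbp4, Synj2 and Elovl4, at root mean square distances of 0.174 to 0.247 on the log2 scale. Like Fos, each of them was lowest in S02 among the mESC libraries. Zfp334, the nearest, was at 7.45 CPM in S01, 2.35 in S02 and 6.37 in S03, and at 66.6 CPM in S04, 75.5 in S05 and 63.4 in S06. For Jun they were Crabp2, Fst, Tubb4a, Tspan7 and Trib2, at distances of 0.172 to 0.243. Fst, one of the cardiac precursor markers used here, ran from 2.64 to 4.63 CPM over the mESC libraries, against 127 to 138 CPM over those of CPCCs. All 10 of these genes were also called higher in CPCCs. Their rise, and the low S02 of those like Fos, follow largely from picking genes by the profile of Fos or Jun.

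The labels were checked against markers. The 8 mESC markers summed to 5148 to 5473 CPM in mESCs and to 60.0 to 276 CPM in CPCCs. Of the 10 cardiac precursor markers, 9 were listed for CPCCs and 6 for mESCs, with sums of 194 to 315 and 7.61 to 13.6 CPM. Fst, Tnnt2 and Gata6 were called higher in CPCCs (log2 fold changes 5.25, 5.01 and 3.17), Gata4 and Isl1 were not called, and Mef2c, Sox9, Hand2 and Nkx2-5 were listed for CPCCs only. Nkx2-5 was at 16, 0 and 8 counts in S04, S05 and S06, and Tbx5 was listed for mESCs only. The sums of the cardiac precursor markers lay below the 9383 to 13273 CPM of the mesenchymal or fibroblast markers in the CPCC libraries. The endothelial markers, 5 of 5 listed for CPCCs and 2 of 5 for mESCs, summed to 15.2 to 25.8 CPM in CPCCs and to 91.4 to 101 CPM in mESCs, where Pecam1 alone made up 85.1 to 94.3 CPM. Cdh5, Kdr and Emcn were listed for CPCCs only. The mESC libraries totalled 6442639 to 6907330 counts each, those of CPCCs 8468819 to 11436062.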

How the data were processed

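Bulk RNA-seq of mESCs and CPCCs was compared, with 3 libraries each. From polyA-selected cDNA the authors deposited, in 1 table per cell type, the estimated count of reads of each gene, neither normalized nor split by allele. The submitters' processing notes name STAR 2.7 and mm10, and the counter and its strand setting are not given in the sources used here. Tables were assigned to a cell type by their names, and libraries are named by their columns, which carry no replicate numbers. Each table holds genes with at least 10 counts over its 3 libraries.

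Counts were rounded to whole numbers. Of 13001 genes in both tables, filterByExpr of edgeR 4.0.16 (R 4.3.3) removed 530. Groups were compared by the quasi-likelihood test of edgeR, with TMM factors, over the 12471 genes left, called at a Benjamini-Hochberg adjusted p under 0.05. Alternatives were DESeq2 1.42.0, other normalizations, filters and thresholds, missing genes set at 0 or 3 counts, and each library left out. Genes named from a list are the 3 largest rises and falls among those called without overlap, plus the 2 largest bounds in each direction, and 1 gene so picked is not reported here. Jdp2, Spp1 and the genes that overlap or neighbour a member were named after their values were seen. The log2 CPM profiles used a prior count of 2. Bounds took 3 counts per library as floor, and bounds and intervals cover counting error only. Bounds without each library were added after seeing the data. The 10 genes, the other lists and the markers were chosen with earlier results of these data known. The fit was tested on simulated counts. Promoters came from RefSeq (GRCm38.p6) and exons from GENCODE M21.

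The 3 libraries of a group came from separate clones per the study's methods, but no library was matched to its clone. Allele counts, single cells and chromatin data were not analysed here.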

Additional observations from a re-analysis of the deposited data

How the results depend on the processing

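Fos, Fosl2, Jun, Junb and Atf3 kept their direction and call under every alternative in which they were tested, and Fosl2 and Jun were not tested with at least 10 counts in every library. Their log2 fold changes ran from 3.39 to 4.05, 6.91 to 7.69, 5.02 to 5.62, 3.17 to 3.65 and 0.97 to 1.29 when each library was left out. Jund was called with DESeq2, with at least 10 counts in every library (edgeR adjusted p = 0.0366) and without S02 or S04. With missing genes at 0 or at 3 counts, 8 of the 10 genes were called higher, the 3 added being Egr1, Egr2 and Fosb. Their fold changes depend on the counts filled in. Calls over all genes rose too under these fills. Genes called higher went from 3955 to 4960 (fill of 0) and 4746 (fill of 3). Those called lower went from 3701 to 3888 (fill of 0) and 4265 (fill of 3). The added calls among the 10 genes are thus not particular to them. The genes known as AP-1 targets called higher then numbered 23. The number of all genes called lower was 2430 at a 2-fold threshold, against 3701. At that threshold 1 other bZIP gene and 2 upstream genes were called lower, and 3 upstream genes with no filter. When each library was left out, the other bZIP genes called lower numbered 1 to 4, the upstream genes 3 to 4 and the AP-1 targets 0 to 1. The causes were not tested. Of the 27 fitted genes that the rule for named genes picked outside the 10, 4 changed call (Nfe2, Atf1, Atf4 and Map2k6) and 0 reversed. No paired analysis was possible because the columns carry no replicate numbers. Depth limits Fosl2 in mESCs, at 13 counts, and the 4 genes not listed there.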
